A study of Mus musculus with 16 samples.

Results

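The contrast set out here is TET_KO against TET_WT in epiblast-like cells (EpiLC), a state that mouse embryonic stem cells (ESC) pass through as they leave naive pluripotency. It was chosen by its labels alone, as the difference between the EpiLC columns of the 2 TET lines over every listed interaction and every promoter, and it rests on 4 of the 16 samples of the series, with 2 of each line. TET_KO cells lack Tet1, Tet2 and Tet3, the enzymes that oxidise methylated cytosine and so start its removal, and TET_WT is the line they were made from. The EpiLC samples were taken at day 2, and the ESC samples, grown in 2i and Lif, at day 0. The same 2 stages of a line without Dnmt1, Dnmt3a and Dnmt3b (DNMT_KO) and of its parent (DNMT_WT) are used below as background. The labels do not say whether a line is 1 clone, so a difference between TET_KO and TET_WT is a difference between these 2 lines.

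In promoter-capture Hi-C, chromatin is cross-linked, cut with HindIII and religated, and fragments that carry promoters are pulled out with RNA baits, so that the DNA lying near each promoter in the nucleus can be counted. Distant enhancers act through such contacts, and many promoters of developmental regulators that are held silent by Polycomb complexes are known to meet each other over long distances in pluripotent cells. CTCF, which anchors many chromatin loops, is known to bind less well to some of its sites when they are methylated, and TET enzymes are known for keeping enhancers and CpG-rich promoters free of methylation.

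The table held 260860 interactions of 20017 promoter fragments. Each value is a CHiCAGO score, which states how far a contact exceeds the number expected for its distance and fragments, and 5 is the score at which contacts are usually called. Every listed interaction reached 5 in at least 1 of the 8 columns. There is 1 column per group, while the labels list 2 samples of each, so no value below has an SD, no difference was tested, and the depth of each library is unknown. A promoter's value is the mean asinh of its quantile-normalised scores, over interactions scored in all columns, and it was formed for 15677 promoters with at least 3 such interactions. On this scale a difference of 0.693, the natural logarithm of 2, equals a doubling of a high score, and a difference past it is called higher or lower below. The difference has a spread across promoters (SD) of 0.36 in EpiLC for TET_KO minus TET_WT and 0.34 for TET_WT minus DNMT_WT, which compares parental lines.

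The contacts of the deleted genes do not check the labels, because a deletion inside a gene need not alter the contacts of its promoter. The Tet2 promoter was at 1.63 in TET_KO EpiLC, against 2.04 in TET_WT EpiLC. For Tet3 the values were 2.01 and 1.80. Tet1 had 2 listed interactions, too few for a promoter value. Among the methyltransferase genes, Dnmt1, which copies methylation at replication, differed by 0.18, and Dnmt3a and Dnmt3b, which add it anew, by 0.12 and -0.08. None of these 5 measured promoters passed a doubling.

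TET_KO EpiLC had more contacts of middle and long range within a chromosome and fewer of the very far ones. Interactions scoring 5 or more numbered 100796 in TET_KO and 93930 in TET_WT, a ratio of 1.07. Up to 100 kb the numbers were 15609 and 15927. From 100 to 500 kb, the class that holds most listed interactions, they were 67655 and 62129, a ratio of 1.09. From 500 kb to 1 Mb they were 11942 and 10439, a ratio of 1.14, and from 1 to 10 Mb 4482 and 3572, a ratio of 1.25. The ratio thus grew with each class up to 10 Mb. Over 10 Mb it was 0.710, with 471 interactions in TET_KO and 663 in TET_WT, and between chromosomes 0.531, with 637 and 1200.

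In ESC of the same lines, which share no column with the EpiLC pair, the ratio also grew up to 10 Mb, with 0.883, 1.08, 1.34 and 1.58 in the same 4 classes. Between chromosomes it was 0.699 in ESC, whereas over 10 Mb it was 1.18 and so lay on the other side of 1. The DNMT_KO over DNMT_WT ratios in EpiLC lay between 0.947 and 1.07 in the classes up to 10 Mb. They were 0.879 over 10 Mb and 0.836 between chromosomes, so that a lower number of very far contacts was not particular to TET_KO. The parental lines also differed from each other. TET_WT over DNMT_WT in EpiLC was 0.953, 1.14, 1.16 and 0.819 in the classes up to 10 Mb, a span no narrower than that of the knock-out ratio, and 0.309 over 10 Mb and 0.988 between chromosomes. The excess in TET_KO depended on the score. At 3 or more the total was 174675 in TET_KO and 174408 in TET_WT, a ratio of 1.00, and at 10 or more 14944 and 13280, a ratio of 1.13.

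**Figure D1:**
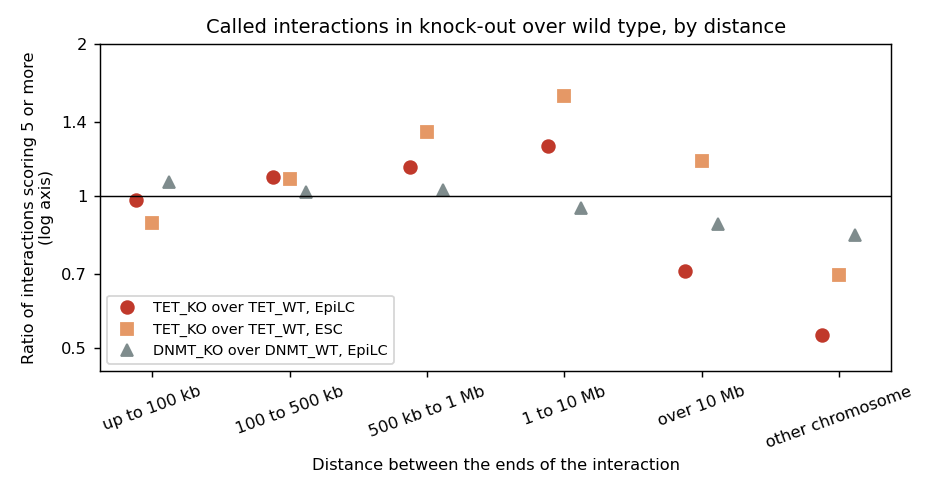
Ratio of the number of interactions scoring 5 or more in knock-out over wild type (log axis), by distance between the ends, for TET_KO over TET_WT in EpiLC and in ESC and for DNMT_KO over DNMT_WT in EpiLC. Each point compares 1 column with 1 column; the EpiLC ratio of the TET lines reaches 1.25 at 1 to 10 Mb and 0.531 between chromosomes.

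Of 251407 interactions scored in both EpiLC columns, 54043 were called in both. Another 18332 (7.29%) were called in TET_KO and scored under 3 in TET_WT, here named gained, and 14828 (5.9%) were the reverse, here named lost. On quantile-normalised scores, which make the number of calls in the 2 columns equal, there were 15260 gained and 14533 lost. Within 1 Mb there were 15371 gained (6.5%) and 12544 lost (5.3%). In ESC the shares were 7.09% gained and 5.22% lost over all distances, and 6.45% and 4.94% within 1 Mb. For DNMT_KO against DNMT_WT in EpiLC they were 5.1% and 5.14%, and for TET_WT against DNMT_WT in EpiLC 6.76% and 5.13%, so that parental lines also exchanged many contacts. Most single contacts that separated the lines in EpiLC did not do so in ESC. Of 17952 gained EpiLC interactions scored in all 4 columns, 9.22% were also gained in ESC, where 7.04% of all interactions were. Of 14509 lost ones, 5.58% were also lost in ESC, against 5.15% of all. A gained EpiLC contact was lost in ESC in 1.39% of cases, where 5.15% of all interactions were. A lost EpiLC contact was gained in ESC in 3.4% of cases, where 7.04% of all were. The shares over all interactions include those listed only for an ESC score of 5 or more, so they are not a level expected by chance. In number of called interactions per promoter, 7250 of 15677 promoters (46.2%) had more in TET_KO, 5349 (34.1%) had fewer and 3078 (19.6%) had the same.

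By the mean score, 561 promoters (3.58%) were higher by a doubling in TET_KO EpiLC and 394 (2.51%) were lower. The same count gave 524 (3.34%) and 346 (2.21%) in ESC and 211 (1.35%) and 181 (1.15%) for DNMT_KO against DNMT_WT in EpiLC. For TET_WT against DNMT_WT in EpiLC, which shares the TET_WT column, it gave 358 (2.28%) and 403 (2.57%). Promoters past a doubling had few interactions, with a median of 6 among the higher and 5 among the lower, against 11 among all. Among the 8537 promoters with 10 or more interactions, 147 (1.72%) were higher and 89 (1.04%) lower. The values next to the limit show how fine it is. Dennd1c, just inside, was at 2.60 in TET_KO and 1.90 in TET_WT, with a difference of 0.69, and Fsd2, just outside, at 2.24 and 1.54. On the lower side, the U6.748 copy was at 1.51 and 2.21 and Pbx2 at 1.24 and 1.93.

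Which of the 4 EpiLC columns stood apart differed among these promoters. Of the 561 higher ones, TET_KO was the highest and TET_WT the lowest of the 4 EpiLC columns in 302, TET_KO alone was at its extreme in 202 and TET_WT alone in 50. Of the 394 lower ones these counts were 223, 96 and 71. In 233 of the 561 higher promoters both TET_KO columns, ESC and EpiLC, lay above all 6 other columns, and in 81 of the 394 lower ones both lay below. Over all promoters this held for 1270 and 1033 of 15677. The higher and lower promoters were selected on the TET_KO and TET_WT columns of EpiLC, which favours such orders. These counts therefore describe the selected promoters and are not support for a difference.

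Differences between the lines were in part shared by the stages. Of the 561 promoters higher in EpiLC, 453 (80.7%) had a positive difference in ESC, where 49.5% of all promoters did, and 140 were past a doubling there too. Of the 394 lower ones, 280 (71.1%) were negative in ESC, where 50.5% of all were, and 59 were past a doubling. Another 14 higher and 14 lower ones were past a doubling the opposite way in ESC. Across the 15677 promoters the correlation of the EpiLC with the ESC difference was 0.39 (Pearson and Spearman), and with the DNMT_KO minus DNMT_WT difference in EpiLC 0.03 (Pearson) and 0.04 (Spearman). The points of the first correlation share their cell lines and fragments but no column, and promoters are not independent replicates.

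**Figure D2:**
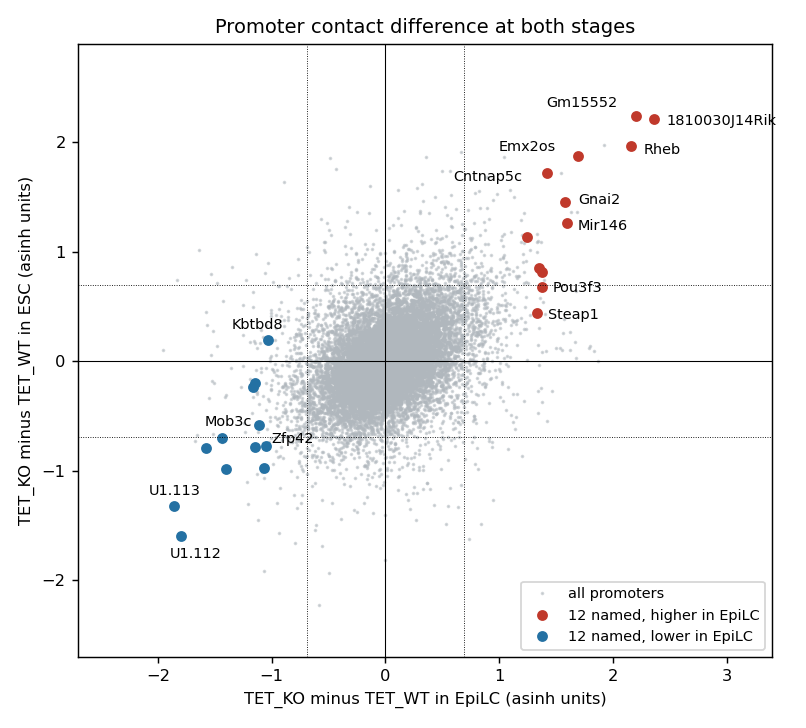
Difference in promoter value, TET_KO minus TET_WT, in EpiLC (x axis) and in ESC (y axis), in asinh units, for 15677 promoters (grey) and for the 12 largest differences each way among promoters with 10 or more interactions (coloured). Dotted lines mark a doubling; all 12 higher promoters lie above 0 in ESC, and 11 of 12 lower ones lie below.

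At the promoters with the largest differences, most scored interactions differed in the same direction. This is in large part set by choosing promoters for a large mean difference over their interactions. It also depends on the listing of interactions that reached the score for a call in some column. The EpiLC interaction counts given below for these promoters therefore describe the chosen promoters and are not separate support for a difference. Of the 12 largest positive differences among promoters with 10 or more interactions, 10 were past a doubling in ESC as well, and of the 12 largest negative ones 8 were. The members differ widely in function. Among the higher ones are regulators of the forebrain (Emx2os and Pou3f3), signalling proteins (Rheb, Gnai2 and Dclk3), a microRNA gene (Mir146) and a metalloreductase relative (Steap1). Among the lower ones are Zfp42, a marker of naive pluripotency, and several copies of small nuclear RNAs.

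Promoter sequence is shown for 3 of the higher genes, all regulators of the nervous system, and 2 of the lower ones, because cytosine in a CG pair is the substrate of the enzymes that were deleted. The sequences come from RefSeq on GRCm38.p6, run 5′ to 3′ on the strand of the gene from 250 bases before to 50 after its start, and have each CG in capitals. Emx2 (chr19:59458440-59458739, plus strand) has its start in the fragment that the table names Emx2os. Pou3f3 lies at chr1:42695518-42695817 (plus strand), Pax6 at chr2:105668646-105668945 (plus strand), Zfp42 at chr8:43306960-43307259 (minus strand) and Mob3c at chr4:115827830-115828129 (plus strand).
Emx2: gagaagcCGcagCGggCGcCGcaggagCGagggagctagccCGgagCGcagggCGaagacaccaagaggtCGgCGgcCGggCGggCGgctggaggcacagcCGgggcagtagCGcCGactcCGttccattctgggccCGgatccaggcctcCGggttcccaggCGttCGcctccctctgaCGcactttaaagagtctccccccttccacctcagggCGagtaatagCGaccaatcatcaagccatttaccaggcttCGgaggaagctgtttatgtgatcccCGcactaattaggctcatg
Pou3f3: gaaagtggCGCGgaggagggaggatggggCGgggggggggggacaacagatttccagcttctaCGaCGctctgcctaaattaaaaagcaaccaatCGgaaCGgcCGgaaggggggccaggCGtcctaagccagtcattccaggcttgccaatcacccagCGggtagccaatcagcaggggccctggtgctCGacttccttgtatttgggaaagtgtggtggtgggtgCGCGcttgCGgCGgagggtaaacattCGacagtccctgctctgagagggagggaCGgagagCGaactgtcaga
Pax6: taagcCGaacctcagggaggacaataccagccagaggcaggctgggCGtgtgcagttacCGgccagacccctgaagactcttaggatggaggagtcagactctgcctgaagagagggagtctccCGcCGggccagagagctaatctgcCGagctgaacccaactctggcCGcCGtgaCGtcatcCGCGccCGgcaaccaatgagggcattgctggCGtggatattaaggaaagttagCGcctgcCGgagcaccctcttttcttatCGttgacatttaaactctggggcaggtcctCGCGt
Zfp42: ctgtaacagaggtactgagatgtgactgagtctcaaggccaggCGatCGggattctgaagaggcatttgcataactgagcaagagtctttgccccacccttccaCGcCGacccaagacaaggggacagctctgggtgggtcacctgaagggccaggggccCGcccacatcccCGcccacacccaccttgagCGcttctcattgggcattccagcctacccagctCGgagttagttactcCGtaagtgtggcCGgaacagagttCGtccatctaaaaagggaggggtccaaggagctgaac
Mob3c: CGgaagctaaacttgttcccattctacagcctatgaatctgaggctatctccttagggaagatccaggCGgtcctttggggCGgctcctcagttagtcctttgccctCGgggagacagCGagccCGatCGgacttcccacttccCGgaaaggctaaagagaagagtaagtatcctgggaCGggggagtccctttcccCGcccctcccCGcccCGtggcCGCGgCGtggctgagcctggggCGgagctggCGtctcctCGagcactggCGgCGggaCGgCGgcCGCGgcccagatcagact
The CG pair reads the same on both strands, and 94.6% of the 32851 promoters in the RefSeq table hold at least 1, with a median of 7. For the promoter fragments matched here the median was 17, counting in each fragment the start site with the most CG pairs. The 2 medians are therefore not alike. Emx2 has 26, Pou3f3 and Pax6 18 each, Zfp42 11 and Mob3c 24. Of the higher genes whose sequence is not shown, Rheb has 47 and Steap1 33. So few genes, picked by name, do not compare the CG number of higher and lower promoters. RefSeq sequence could be matched to 64.3% of the 15677 promoters, so that a check of CG number over all of them is void. Methylation itself was not measured in these files.

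Emx2os, the antisense partner of Emx2, a homeobox regulator of the forebrain and urogenital tract, was at 2.58 in TET_KO EpiLC, against 0.88 in TET_WT, 1.00 in DNMT_KO and 1.13 in DNMT_WT EpiLC. Only TET_KO stood out at this stage. In ESC the values were 2.69 in TET_KO, 0.82 in TET_WT, 1.13 in DNMT_KO and 2.23 in DNMT_WT, so that there DNMT_WT was high as well. The difference was 1.70 in EpiLC and 1.87 in ESC. Of 22 interactions scored in all columns, 657 to 905 kb from the fragment towards the chromosome end, 21 had a higher score in TET_KO, and 17 were called in TET_KO against 2 in TET_WT. The contact with 19:60160170-60161062, in the region 36.1 kb from Fam204a, scored 16.2 in TET_KO and 0 in TET_WT EpiLC, and 16.7 and 1.37 in ESC.

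Pou3f3, a POU-domain factor of the developing nervous system, was at 2.16 in TET_KO EpiLC, against 0.78 in TET_WT, 0.89 in DNMT_KO and 0.97 in DNMT_WT EpiLC. In ESC it was at 0.99 in TET_KO and 0.31 in TET_WT, a difference of 0.68 just short of a doubling. Its 12 interactions reached from 879 to 2798 kb. Of these, 9 scored higher in TET_KO and 2 lower, and one with a fragment 1546 kb away scored 7.56 in TET_KO and 0 in TET_WT. The contacts of Pou3f3 were thus of a longer range than those of Emx2os. With incompletely scored interactions included, its difference was 1.04.

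Rheb, the small GTPase that switches on mTORC1, was at 2.33 in TET_KO EpiLC and 0.17 in TET_WT EpiLC, a difference of 2.16. The DNMT lines were at 0.29 (DNMT_KO) and 0.26 (DNMT_WT) in EpiLC, and the ESC difference of the TET lines was 1.96. All 22 of its interactions scored higher in TET_KO. They scored 3.03 to 7.89 in TET_KO and 0 to 2.19 in TET_WT, where 14 were at 0. This separation is in large part set by the choice of the promoter for its difference. It also depends on the listing of interactions that reached 5 in some column. The neighbouring Gm15552 differed by 2.20 in EpiLC and 2.24 in ESC. Together with 4933426D04Rik and 7 other promoters these fragments formed a pair of regions on chromosome 5 between 24211575 and 24903494, picked out after its values were seen. Of its 112 listed interactions, 78 were called in TET_KO and 2 in TET_WT EpiLC, 76 and 1 in ESC, and 2 and 0 in DNMT_KO and DNMT_WT EpiLC. In the 5 Mb window from 20 to 25 Mb on chromosome 5, which holds this region, the median difference of 48 promoters was 0.29. By a doubling 15 of the 48 were higher and 1 lower, where 3.58% and 2.51% of all promoters were.

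Mir146, the gene of miR-146a, a microRNA known to dampen innate immune signalling, was at 2.16 in TET_KO EpiLC and 0.57 in TET_WT EpiLC, a difference of 1.59, and differed by 1.27 in ESC. The mature strands are shown, with the seed (bases 2 to 8), which pairs with target RNAs, in capitals. They are credited to RefSeq (GRCm38.p6, chromosome 11, minus strand).
mmu-miR-146a-5p: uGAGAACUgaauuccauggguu
mmu-miR-146a-3p: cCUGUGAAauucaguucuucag
Of its 19 interactions, which lay 961 to 2672 kb away, 15 scored higher in TET_KO, and 12 were called in TET_KO and 1 in TET_WT. The strongest difference was with a fragment 2495 kb away, at 10.5 in TET_KO and 0 in TET_WT. Contacts do not measure how much of the microRNA is made.

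Gnai2, the α subunit of an inhibitory G protein, was at 2.62 in TET_KO EpiLC and 1.04 in TET_WT EpiLC, and at 2.57 and 1.12 in ESC. Its 11 interactions lay close, 10.2 to 284 kb away, and all scored higher in TET_KO, where 10 were called against 0 in TET_WT. DNMT_WT was as high as TET_KO in ESC (2.63) but not in EpiLC (1.15). Gm10064, a predicted gene, likewise had 14 of 14 interactions higher and 11 called against 0, at 2.35 in TET_KO and 0.98 in TET_WT. There the DNMT lines were at 1.86 (DNMT_KO) and 1.78 (DNMT_WT), so that TET_WT stood farther below them than TET_KO stood above.

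The other named higher promoters had distant partners. Steap1 had 34 interactions with a median distance of 2197 kb, of which 27 were called in TET_KO and 4 in TET_WT, and its difference of 1.33 became 0.44 when only interactions of up to 1 Mb were used. In ESC it was 0.44. Cntnap5c, of a family of neuronal adhesion proteins, differed by 1.42 in EpiLC and 1.72 in ESC, with all 12 interactions higher. Dclk3, a kinase of the doublecortin-like family, differed by 1.35 and 0.85, and Gm4956 by 1.25 and 1.14. The largest difference among promoters with 10 or more interactions, 2.36, was that of 1810030J14Rik, at 2.84 in TET_KO EpiLC and 0.48 in TET_WT EpiLC, but here the DNMT lines were also high, at 1.71 in DNMT_KO and 2.14 in DNMT_WT EpiLC, and the low column was that of TET_WT. With incompletely scored interactions included it was 1.48, below Gm15552 (2.22) and Rheb (2.10).

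Mob3c, which belongs to a family of kinase activators, had the largest negative difference outside chromosome 11 among promoters with 10 or more interactions, at 0.55 in TET_KO EpiLC and 1.99 in TET_WT EpiLC, or -1.43, and -0.70 in ESC. The DNMT lines lay between, at 1.15 in DNMT_KO and 1.47 in DNMT_WT. All 10 of its interactions were lower in TET_KO, with scores of 0 to 3.31, against 1.08 to 6.50 in TET_WT. The contact with 4:114967173-114970048, 860 kb away, scored 0 in TET_KO and 6.45 in TET_WT. From the opposite end, Stil, which is needed for centriole duplication, had a contact with a fragment inside Mob3c at 0 in TET_KO and 9.73 in TET_WT EpiLC. Of 12 listed interactions between these 2 regions, 0 were called in TET_KO and 6 in TET_WT EpiLC, and 2 and 4 in ESC.

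Zfp42 (Rex1) was at 0.42 in TET_KO EpiLC and 1.57 in TET_WT EpiLC, a difference of -1.15, with -0.78 in ESC. Of its 10 fully scored interactions 7 were lower in TET_KO and 0 higher. Interactions without a score in some column change this value. With them included the difference was -0.27, and by number it had 4 called interactions in TET_KO and 4 in TET_WT. Zfp42 is on chromosome 8, as are Gm16237 (-1.16), the SNORA17.496 copy (-1.11) and BC021891 (-1.06), which makes 4 of the 12 named lower promoters. Chromosome 8 held 805 of all 15677 promoters and 41 of the 394 lower ones.

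Ube2r2, a ubiquitin-conjugating enzyme, was at 1.36 in TET_KO EpiLC and 2.51 in TET_WT EpiLC, with 0 and 11 called contacts. Its 12 interactions were all lower, but the ESC difference was -0.19, and in EpiLC the DNMT lines (1.52 in DNMT_KO and 1.80 in DNMT_WT) were nearer to TET_KO. Mfsd7a, a predicted membrane transporter, differed by -1.05 in EpiLC and -0.78 in ESC, with 3 called interactions in TET_KO and 13 in TET_WT. Kbtbd8, an adaptor of a ubiquitin ligase, was at 0.91 in TET_KO EpiLC and 1.94 in TET_WT EpiLC. Of the 12 lower promoters named for their size, it alone had a positive ESC difference (0.20), and both DNMT lines were low in EpiLC (0.89 in DNMT_KO and 0.71 in DNMT_WT).

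The remaining 4 named lower promoters, the U1.113, U1.112 and U6.660 copies and Gm11634, belong to 1 pairing of distant regions of chromosome 11. Their interactions had median distances of 14131 to 14193 kb. U1.113 was at 0.74 in TET_KO EpiLC, against 2.60 in TET_WT, 2.86 in DNMT_KO and 2.41 in DNMT_WT EpiLC, so that TET_KO alone was low in EpiLC. In this pairing, 15 interactions were called in TET_KO and 137 in TET_WT EpiLC, 6 and 73 in ESC, and 125 and 108 in DNMT_KO and DNMT_WT EpiLC. In ESC the DNMT lines had 7 (DNMT_KO) and 19 (DNMT_WT), nearer to TET_KO, so that there TET_WT stood apart. With interactions of up to 1 Mb only, U1.112 was at 0.40 instead of -1.80, U6.660 at -0.12 instead of -1.58 and Gm11634 at -0.03 instead of -1.40. Copies of small nuclear RNAs resemble each other in sequence, and the sources used here do not say how reads matching several copies were treated.

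**Figure D3:**
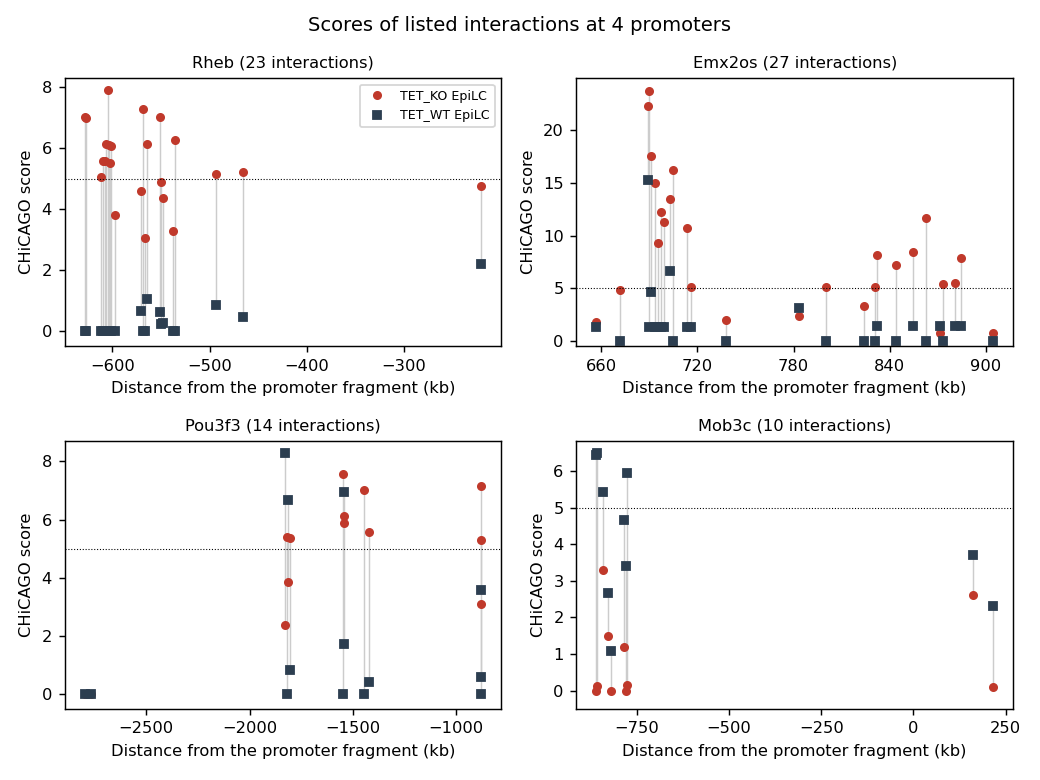
CHiCAGO scores in EpiLC (TET_KO circles, TET_WT squares) of the interactions scored in both columns at 4 promoters, against the distance from the promoter fragment in kb. A dotted line marks a score of 5 and grey lines join the values of 1 interaction. At Rheb the TET_KO score of each interaction lies above that of TET_WT, and at Mob3c below it. The promoters shown were picked for their differences.

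Single gained contacts of up to 1 Mb, taken as the 10 with the largest score difference and 1 per promoter, lay in few places. Zfp187, a zinc-finger gene beside the histone cluster on chromosome 13, met a fragment 349 kb away, near Olfr263, with a score of 31.5 in TET_KO and 0 in TET_WT EpiLC, and 31.8 and 0.54 in ESC. Its neighbour Mir1896 had such a contact at 12.8 in TET_KO and 0.11 in TET_WT. Of 22 listed interactions between these regions 18 were called in TET_KO and 0 in TET_WT EpiLC, and 0 in either DNMT line. Acsbg2, an acyl-CoA synthetase, met a fragment near Vmn2r120, 633 kb away, at 26.2 in TET_KO and 0 in TET_WT EpiLC, and 1700061G19Rik beside it one near Adgre1 at 13.1 and 0. Here 12 of 14 were called in TET_KO and 0 in TET_WT. Ero1lb, an oxidase of the endoplasmic reticulum, met a fragment inside Gpr137b at 17.7 in TET_KO and 0 in TET_WT, and the SNORA73.5 copy next to it one at 15.1 and 0.

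4933426D04Rik (31.1 in TET_KO and 0 in TET_WT) and Gm15552 (14.3 and 0) belong to the chromosome 5 region described above, and Emx2os gave the contact already named. The last of the 10, 1700001L19Rik, met a fragment near Tent4a, 870 kb away, at 17.97 in TET_KO and 0.35 in TET_WT. In ESC each of these 10 contacts also scored over 10 in TET_KO, and none over 1.84 in TET_WT where it had a score. The regions were picked for their values, so their ESC scores are the separate measurement.

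The 10 largest lost contacts were more scattered and less alike between stages. Myo9b, an unconventional myosin, met a fragment near Fcho1, 466 kb away, at 0 in TET_KO and 9.24 in TET_WT EpiLC, and at 0 and 18.4 in ESC. Zkscan3, a zinc-finger gene, met the promoter fragment of Olfr1366, 133 kb away, at 0.10 in TET_KO and 10.1 in TET_WT EpiLC, and at 0.17 and 10.7 in ESC. The SNORA46.2 copy had a contact at 0.02 and 9.20 in EpiLC and at 0 and 7.70 in ESC. For Gm4694 (0.08 in TET_KO and 11.95 in TET_WT) the DNMT_WT column was also high in EpiLC (13.7). At Mmp3, a matrix protease, the scores were 0 in TET_KO and 8.46 in TET_WT EpiLC but 0 and 1.1 in ESC. The contact of Olfr873 with Olfr851, at 0 and 8.95 in EpiLC, scored 7.25 in TET_KO and 1.14 in TET_WT in ESC, the opposite order. P2rx2, an ATP-gated channel (0.05 and 9.76), Krtap4-6, a hair keratin-associated protein (0 and 9.26), and 4930404H24Rik (0.10 and 11.7) complete the list with Stil.

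Grouped by function, promoters of developmental regulators known as Polycomb targets outside the Hox clusters were on balance higher in TET_KO EpiLC. Their median difference was 0.20, against 0.01 over all promoters, and 59 of 77 were above 0, where 51.5% of all promoters were. In EpiLC 5 of 77 (6.49%) were higher by a doubling, where 3.58% of all promoters were, and 0 were lower, where 2.51% were. Together they had 839 called interactions in TET_KO and 577 in TET_WT, a ratio of 1.45, against 1.08 over all promoters. In ESC 62 of 77 were above 0 with a median of 0.18. Between the parental lines, TET_WT minus DNMT_WT in EpiLC, 45 of 77 were above 0, and for DNMT_KO minus DNMT_WT 48 of 77, with medians of 0.07 and 0.06.

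The 5 members past a doubling were Pax6, Tbx15, Sox9, Twist1 and Pax5. Pax6, a master regulator of the eye and forebrain, was at 2.14 in TET_KO EpiLC and 1.16 in TET_WT EpiLC, with 4 and 1 called interactions. Tbx15, a T-box factor of the skeleton, was at 2.41 and 1.46 and differed still more in ESC (1.48). Sox9, needed for cartilage and testis, was at 1.77 and 0.86, with 1.08 in ESC. Twist1, a mesenchymal bHLH factor, and Pax5, the B-cell factor, differed by 0.80 and 0.75, with 0.27 and 0.21 in ESC. Each of the 5 rests on 3 to 8 interactions. Members with more were also high without passing a doubling, among them Lhx8 (0.60, 20 interactions), a forebrain regulator, and Six2 (0.61, 13 interactions), of kidney progenitors. An opposite case was Irx5, at 1.66 in TET_KO EpiLC and 2.27 in TET_WT EpiLC, a difference of -0.61, with 0.71 in ESC.

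Neuroectoderm genes, of which 13 of 18 are in the Polycomb list, had 16 of 18 above 0 and a median of 0.16. Only Pax6 (5.56%) was higher by a doubling and 0 were lower, where 3.58% and 2.51% of all promoters were. Nkx6-1, of the ventral neural tube, was at 2.21 in TET_KO EpiLC and 1.71 in TET_WT EpiLC, with 23 and 8 called interactions. Hox genes were less shifted, with 19 of 31 above 0 and a median of 0.08. Hoxd11 alone (3.23%) was higher by a doubling (0.78, -0.37 in ESC), near the 3.58% of all promoters, and 0 were lower. Of 21 mesoderm and primitive streak genes 13 were above 0 and 0 past a doubling. The largest differences there were those of Isl1, of the heart and motor neurons (0.65), and Cdx4, of the posterior axis (-0.65). Of 9 endoderm genes 3 were above 0, and none of the 9 passed a doubling; Ttr, transthyretin, was lowest at -0.45.

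Contacts between promoters of Polycomb-target regulators were too few to compare, with 9 listed, of which 3 were called in TET_KO and 1 in TET_WT EpiLC. Over all promoters, interactions with another promoter numbered 10176 in TET_KO and 9365 in TET_WT, a ratio of 1.09, and those without 90620 and 84565, a ratio of 1.07. In ESC the first ratio was 0.933.

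**Figure D4:**
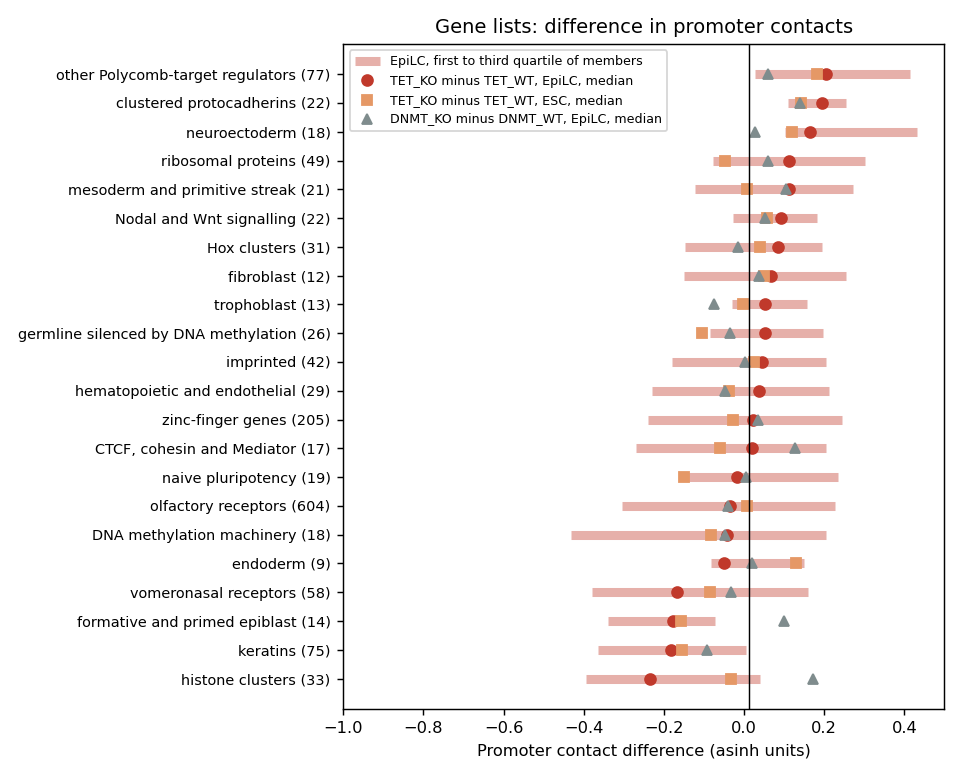
Median difference in promoter value (asinh units) for each gene list, number of promoters in parentheses: TET_KO minus TET_WT in EpiLC (circles, with bars from the first to the third quartile of members) and in ESC (squares), and DNMT_KO minus DNMT_WT in EpiLC (triangles). The vertical line is the EpiLC median of all promoters, 0.01; Polycomb-target regulators lie at 0.20 and histone genes at -0.24.

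Genes of the formative and primed epiblast, the state that EpiLC model, were on balance lower. Only 3 of 14 were above 0 in EpiLC, with a median of -0.18, and 4 of 14 in ESC, with -0.16, while none of the 14 passed a doubling. Called interactions numbered 96 in TET_KO and 144 in TET_WT, a ratio of 0.667. Etv5, an ETS factor of the exit from naive pluripotency, was at 1.64 in TET_KO EpiLC and 2.25 in TET_WT EpiLC. Zic5 differed by -0.49, Utf1, a chromatin protein of pluripotent cells, by -0.38 and Sall2 by -0.36, the last with 28 called interactions in TET_KO and 52 in TET_WT. Pou3f1 (Oct6) was one of the 3 above 0, at 0.20. Between the parental lines 5 of 14 were above 0.

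Naive pluripotency genes went both ways, with 9 of 19 above 0. By a doubling 1 (5.26%) was higher and 2 (10.5%) lower, where 3.58% and 2.51% of all promoters were. One of the 2 was Zfp42, whose difference was -0.27 with incompletely scored interactions included. The other, Nr5a2, a nuclear receptor of the naive state, was at 1.38 in TET_KO EpiLC and 2.14 in TET_WT EpiLC on 5 interactions. Tbx3, a T-box factor of the naive network, was higher, at 1.74 and 1.04, with -0.15 in ESC. Nanog differed by -0.50 in EpiLC and -0.87 in ESC, with 10 and 25 called interactions in EpiLC and 8 and 28 in ESC. Among Nodal and Wnt genes 15 of 22 were above 0. Acvr2a, an activin receptor, was higher (0.79) and Sp5, a Wnt target, lower (-0.73), each 4.55% of the 22. Over all promoters these shares were 3.58% and 2.51%.

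The title of the series names hematopoietic lineages, and genes of blood and endothelium showed no common direction here. Of 29 hematopoietic and endothelial promoters 15 were above 0 with a median of 0.04. By a doubling 2 (6.9%) were higher and 2 (6.9%) lower, where 3.58% and 2.51% of all promoters were. Erg, an ETS factor of blood stem cells and endothelium, was at 2.27 in TET_KO EpiLC and 1.52 in TET_WT EpiLC. Runx1, required for the first blood stem cells, was at 1.41 and 0.70, on 3 interactions. Itga2b (CD41) was at 1.18 and 2.06, and Ikzf1, a lymphoid regulator, at 0.64 and 1.38. The ESC differences of these 4 were 0.02, 0.41, -0.37 and -0.18.

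Germline genes silenced by methylation had 15 of 26 above 0. By a doubling 0 were higher and 2 (7.69%) lower, where 3.58% and 2.51% of all promoters were. The 2 were Zfp42 and Mael, of the piRNA pathway (-0.88 on 3 interactions). Zfp42 is the promoter already counted among the naive genes, and it is not past a doubling with incompletely scored interactions included. The median of the list was 0.05 in EpiLC but -0.11 in ESC, where 8 of 26 were above 0. For TET_WT minus DNMT_WT in EpiLC the median was -0.19, also with 8 of 26. Of 42 imprinted promoters 24 were above 0. Past a doubling were 1 higher (2.38%) and 1 lower (2.38%), where 3.58% and 2.51% of all promoters were. These were Gab1, a signalling adaptor (0.86), and Ndn, of the Prader-Willi region (-0.85). Nespas, antisense to Gnas, had 35 called interactions in TET_KO and 14 in TET_WT with a difference of 0.68. Of 18 genes of the methylation machinery 8 were above 0. None was higher by a doubling and 1 (5.56%) was lower, where 3.58% and 2.51% of all promoters were. Trim28, the co-repressor that zinc-finger proteins bring to imprinted and repeat sequences, was lower, at 1.33 in TET_KO EpiLC and 2.11 in TET_WT EpiLC, with 0 and 14 called interactions, and Uhrf1, which guides Dnmt1, differed by -0.60. Among 17 genes of CTCF, cohesin and Mediator 9 were above 0 and none of the 17 passed a doubling; Ctcf itself differed by -0.36.

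Trim28 lies among zinc-finger and other genes on chromosome 7 of which several were low, as seen after their values were known. In the window from 10 to 15 Mb, 40 promoters had a median of -0.34 in EpiLC and -0.21 in ESC, with 1 higher and 8 lower by a doubling in EpiLC and 10 above 0. Zfp446 was at 1.51 in TET_KO EpiLC and 2.46 in TET_WT EpiLC, with 0 and 35 called interactions, and 6 and 28 in ESC. Zfp324 had 0 and 18 and Zfp110 2 and 20 in EpiLC. Chmp2a, a part of the ESCRT-III membrane-cutting complex, differed by -0.96. Over all 205 zinc-finger promoters, however, 108 were above 0, and 2 (0.976%) were higher and 9 (4.39%) lower by a doubling, where 3.58% and 2.51% of all promoters were; the 4 with the largest differences were Zfp42, Zfp945 (-0.96), Zfp446 and Zfp187 (0.93).

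Clustered gene families split by cluster. Of 22 clustered protocadherins, the neuronal adhesion genes known for CTCF-dependent promoter choice, 18 were above 0 with a median of 0.20 in EpiLC and 0.14 in ESC, and DNMT_KO minus DNMT_WT gave 19 of 22. Pcdhb9 alone (4.55%, against 3.58% of all promoters) was higher by a doubling, at 2.45 in TET_KO EpiLC and 1.26 in TET_WT EpiLC. It had 6 and 0 called interactions, and Pcdhb3 had 25 and 10. Histone genes went the other way, with 9 of 33 above 0 and a median of -0.24, but -0.03 in ESC (0.05 without scaling between columns) and -0.06 in EpiLC with interactions of up to 1 Mb only. Their called interactions were nearly equal, 541 in TET_KO and 554 in TET_WT EpiLC, a ratio of 0.977, against 1.08 over all promoters. DNMT_KO minus DNMT_WT gave 28 of 33 above 0, with a median of 0.17. In TET_KO EpiLC 0 were higher and 2 (6.06%) lower by a doubling. Hist1h4b was at 0.81 in TET_KO EpiLC and 1.81 in TET_WT EpiLC, and Hist1h2ab differed by -0.71. Contacts between 2 histone promoters numbered 62 in TET_KO and 105 in TET_WT EpiLC, and 98 and 96 in ESC. Keratins and keratin-associated genes had 21 of 75 above 0 and a median of -0.18. By a doubling 1 (1.33%) was higher and 4 (5.33%) lower, where 3.58% and 2.51% of all promoters were. Together these genes had 887 called interactions in TET_KO and 1097 in TET_WT. Krt13 (-0.89) and Krt15 (-0.85), epithelial filament proteins, and Krtap6-1 (-0.83) and Krtap2-4 (-0.76), hair keratin-associated proteins, were lower, and Krtap12-1 (0.87) was higher. Krt15 had 5 in TET_KO and 22 in TET_WT EpiLC, and 6 and 22 in ESC.

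Of 604 olfactory receptor promoters 34 (5.63%) were higher and 30 (4.97%) lower by a doubling, where 3.58% and 2.51% of all promoters were, with a median of -0.04. The largest differences, those of Olfr304 (1.63), Olfr344 (-1.55), Olfr1184 (-1.52) and Olfr630 (1.37), each rest on 3 interactions. Vomeronasal receptors had 22 of 58 above 0. By a doubling 1 (1.72%) was higher (Vmn1r74, 1.08) and 3 (5.17%) lower, namely Vmn1r194 (-1.14), Vmn2r60 (-0.90) and Vmn1r191 (-0.79). Ribosomal protein genes had 32 of 49 above 0 in EpiLC and 19 in ESC. In EpiLC 2 (4.08%) were higher and 1 (2.04%) lower by a doubling, near the 3.58% and 2.51% of all promoters. Rplp1 was at 2.25 in TET_KO EpiLC and 0.90 in TET_WT EpiLC and Rpl5 differed by 0.77, while Rps24 was at 1.26 and 2.38, with -1.45 in ESC. Of the trophoblast list 8 of 13 and of the fibroblast list 7 of 12 promoters were above 0. Only Twist1, in the second (8.33%), passed a doubling, as a higher one, where 3.58% of all promoters were higher. For genes of the two-cell-like state no promoter was found under the symbols searched.

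By chromosome, the most uniform shift was on chromosome 8. The median difference of its 805 promoters was -0.18 in EpiLC and -0.19 in ESC. In EpiLC 27.1% lay above 0, where 51.5% of all promoters did. By a doubling 8 (0.994%) were higher and 41 (5.09%) lower, against 3.72% and 2.37% on the other chromosomes. Called interactions within chromosome 8 numbered 4969 in TET_KO and 6378 in TET_WT EpiLC, a ratio of 0.779. In ESC they numbered 4286 and 5413, a ratio of 0.792. The other chromosomes together had 95190 and 86352 in EpiLC, a ratio of 1.10. The ratio on chromosome 8 was 0.746 up to 100 kb, 0.792 from 100 to 500 kb, 0.775 from 500 kb to 1 Mb and 0.780 from 1 to 10 Mb, and over 10 Mb the counts were 4 and 23. In ESC the ratio from 1 to 10 Mb was 1.31, with 159 in TET_KO and 121 in TET_WT, and in the 3 nearer classes it lay between 0.684 and 0.833. The DNMT lines had 5570 (DNMT_KO) and 5593 (DNMT_WT) on this chromosome in EpiLC, between the TET columns. Chromosome copy number was not analysed here.

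Chromosomes 6 and 14 were also lower, with medians of -0.09 and -0.09 in EpiLC and -0.05 and -0.11 in ESC. On these the TET_WT column itself stood high, since TET_WT minus DNMT_WT in EpiLC was 0.11 and 0.19, whereas it was 0.02 on chromosome 8. The highest medians were those of chromosomes 5 and 19, at 0.09 and 0.08. Of 423 windows of 5 Mb with at least 10 promoters, the lowest median was -0.49, in the window that starts at 110 Mb on chromosome 10, and the highest 0.33, in that from 90 Mb on chromosome 15, where TET_WT minus DNMT_WT was 0.36.

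**Figure D5:**
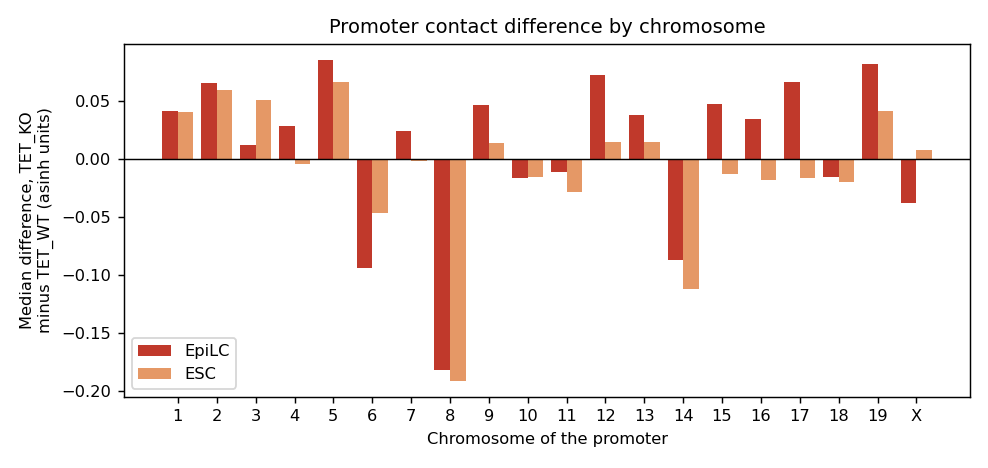
Median difference in promoter value, TET_KO minus TET_WT (asinh units), over the promoters of each chromosome in EpiLC (dark bars) and ESC (light bars). Chromosome 8 lies lowest at both stages, at -0.18 and -0.19; the Y chromosome, with 1 promoter, is left out.

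The lower number of contacts between chromosomes in TET_KO lay mostly in 3 chromosome pairs. Between chromosomes 6 and 8, 0 interactions were called in TET_KO and 305 in TET_WT EpiLC, and 0 in either DNMT line. Of these, 297 join 1 fragment on chromosome 8, that of Mt1, a metallothionein, to chromosome 6 between 24512094 and 28775178, with scores of up to 497 in TET_WT. The TET_KO column lists no score for these 297, which is not the same as a score of 0. In ESC the pair of chromosomes had 4 in TET_KO and 216 in TET_WT. Between chromosomes 7 and 17 there were 2 in TET_KO and 106 in TET_WT EpiLC, of which 102 start at Gm17495. The DNMT lines had 4 (DNMT_KO) and 3 (DNMT_WT) there in EpiLC. Between chromosomes 5 and 16 there were 0 and 85, where the DNMT lines also had contacts (55 in DNMT_KO and 61 in DNMT_WT). Without these 3 pairs the numbers between chromosomes were 635 in TET_KO and 704 in TET_WT, a ratio of 0.902, and in ESC 662 and 605. Only pairs with fewer calls in TET_KO were left out, and the pairs with more, named next, were kept. This choice by itself raises the ratio.

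In the opposite direction, 47 interactions joined chromosomes 1 and 7 in TET_KO and 3 in TET_WT EpiLC, 44 of them between the Gm7235 fragment on chromosome 7 and chromosome 1 from 180168661 to 180778770, where the TET_WT column lists no score. The DNMT lines had 27 and 44 between these chromosomes, so that TET_WT stood apart. Between chromosomes 10 and 16 TET_KO had 24 and TET_WT 0 in EpiLC. The DNMT lines had 25 (DNMT_KO) and 27 (DNMT_WT) there, so that TET_WT stood apart in this pair too. Over 10 Mb within a chromosome, the numbers without the chromosome 11 pairing were 456 in TET_KO and 526 in TET_WT, a ratio of 0.867. These sets were picked out after their values were seen, and interactions that a column does not list count as not called in it.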

How the data were processed

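Promoter-capture Hi-C was deposited by the authors as CHiCAGO scores, 1 column per group of line and stage, with 2 samples of each group in the labels; how these were combined is not stated. The submitters' processing notes name Trim Galore 0.6.5, cutadapt 2.3 and the build GRCm38; an aligner and the release of CHiCAGO are named in none of the sources used here.

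Scores were read as deposited with pandas 2.3.3 and numpy 2.4.6 in Python 3.11.15. Interactions at 5 or more were counted on raw scores, also by distance. Promoter values used the 8 columns after quantile normalisation, without the 15344 interactions that lack a score in some column, and asinh; the calculation was tested on simulated data. Groups follow the labels. With 1 column per group no test was made. Alternatives were no scaling, division by the mean, log2(score + 1), other minima, interactions of up to 1 Mb, scores of 3 and 10, and leaving out chromosomes or far pairings.

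Named promoters are the 12 largest differences each way with at least 10 interactions, per list the members past a doubling and up to 4 largest (only the 4 largest of olfactory receptors and zinc-finger genes), and the 10 largest gained and lost contacts of up to 1 Mb. The rule, the 23 lists and the regions were chosen with earlier results of these data known. Bait names are the table's; 143 promoters without a gene name were counted only. Values of some list members that the rule names are not reported here.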

Additional observations from a re-analysis of the deposited data

Results flagged for a closer look

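For 9 named promoters past a doubling in EpiLC the TET_KO minus TET_WT difference had the opposite sign in ESC. Each stage has 1 column per line, so the difference between stages was not tested. The lower ones in EpiLC were Kbtbd8 (-1.03, and 0.20 in ESC), Vmn1r191 (-0.79, and 0.01 in ESC) and Sp5 (-0.73, and 0.20 in ESC). The higher ones were Olfr630 (1.37, and -0.24 in ESC), Rplp1 (1.35, and -0.03 in ESC), Vmn1r74 (1.08, and -0.80 in ESC), Gab1 (0.86, and -0.01 in ESC), Hoxd11 (0.78, and -0.37 in ESC) and Tbx3 (0.70, and -0.15 in ESC). Vmn1r74 alone among these 9 was past a doubling in both directions.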

How the results depend on the processing

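No paired analysis was possible because the columns carry no replicate numbers, and for the same reason no replicate could be left out. The counts of promoters higher and lower by a doubling were 561 and 394; they were 246 and 159 on the log2(score + 1) scale with a limit of 1, 1179 and 949 with no minimum of interactions, 147 and 89 with a minimum of 10, and 1021 and 937 with only interactions called in an EpiLC column of the TET lines. The share of higher among both was 58.7%, and between 52.1% and 62.3% under the alternatives, and the median over all promoters stayed between -0.0021 and 0.026. Gained and lost interactions numbered 15260 and 14533 on quantile-normalised scores, 37174 and 36354 with a calling score of 3 and 542 and 430 with 10. Promoters with more and fewer called interactions numbered 2723 and 1745 at a score of 10. Promoters past a doubling at both stages numbered 92 (higher) and 35 (lower) with interactions of up to 1 Mb. The ratio between chromosomes was 0.902 without the 3 pairs and that over 10 Mb 0.867 without the chromosome 11 pairing, sets chosen after seeing the data, as was leaving out chromosome 8. The 3 pairs and the pairing all had fewer calls in TET_KO, so leaving them out by itself raises both ratios. List medians changed sign for naive pluripotency without scaling (0.0074), and with interactions of up to 1 Mb for hematopoietic genes (-0.047), CTCF, cohesin and Mediator (-0.096) and zinc-finger genes (-0.010); the causes were not tested. U1.112 was at 0.40 with interactions of up to 1 Mb. Of the 24 named promoters, 24 stayed past a doubling without scaling and with division by the mean, 23 with missing scores kept, and 14 of 18 with interactions of up to 1 Mb. Libraries' depth is unknown, so unequal depth of the columns was not tested.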
